A study of Mus musculus with 11 samples.

Results

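Mitochondrial chaperones, proteases and import machinery were taken as 28 genes chosen by name and every other gene of the count table whose symbol was Timm or Tomm followed by a number. This gave 50 genes of the 36666 listed, 12 of them Timm genes and 10 Tomm genes, and the rule itself uses names alone and no expression value, though it was written with earlier results of these data known. Nearly all mitochondrial proteins are made in the cytosol and enter through the translocase of the outer membrane (TOM), after which the TIM23 complex passes proteins with a presequence to the matrix and the TIM22 complex and its small chaperones bring carriers to the inner membrane. In the matrix the presequence is cut off, heat shock proteins pull in and fold the chain, and proteases such as LONP1 and CLPXP remove what is damaged. Induction of several of these genes is the textbook readout of the mitochondrial unfolded protein response.

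The RNA came from the cerebrum of male C57/Bl6 mice aged 1 year. The 7 mutators carried the proofreading-deficient D257A form of the mitochondrial DNA polymerase Polg on both alleles in all tissues, and the 4 controls were 3 WT/WT mice (205, 239 and 246) and 1 WT/D257A mouse (237). Reads were counted per gene for all 11 mice and per exon bin for 10 of them, without mouse 237. The mice are named here by their number.

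Between 28249345 and 121182250 reads were counted on genes per mouse, and the 50 members took between 0.232% and 0.243% of them in the controls and between 0.237% and 0.249% in the mutators. Mouse 248, a mutator, stood apart in having 3.00 gene counts per aligned read listed by the authors, against 0.744 to 0.775 in the other 10 mice. Neuronal, astrocytic and oligodendrocyte markers such as Snap25, Slc1a2 and Mbp were abundant in every mouse, as they are in cerebrum. The cerebellar marker Gabra6 was above 1 CPM (counts scaled to a library of 1000000 with TMM factors) only in mutators 211 and 217, at 1.01 and 1.46 CPM. Cbln3, also cerebellar, was at 2.48 and 4.54 CPM in these mice, at 1.17 CPM in mutator 207 and between 0.545 and 0.775 CPM in the other 8. The counts were therefore also made without mutators 211 and 217. The summed level of 3 microglial markers ran from 128 to 164 CPM in the controls and from 118 to 136 CPM in the mutators, and that of 3 astrocyte markers from 3160 to 3430 CPM and from 2870 to 3190 CPM. Most of the astrocyte sum was Slc1a2 (log2 fold change -0.13), and Gfap had the opposite sign to it and to Aqp4 (0.22 against -0.18 for Aqp4), with no adjusted p under 0.05 among the 3. The part of these marker levels in the results was not tested, and in whole tissue fewer cells of a type and less RNA per cell cannot be told apart.

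Of the 50 members, 48 had enough counts to be tested. Timm8a2, a copy of the small import chaperone Timm8a1, and Tomm20l, a relative of the receptor Tomm20, were not, with at most 0.0665 CPM and 0.106 CPM in any mouse. None of the 48 members had an adjusted p under 0.05 (quasi-likelihood test of edgeR, adjusted over all genes after Benjamini and Hochberg), against 223 of all 17983 genes tested (1.24%). DESeq2 gave 0 members as well, of 622 genes in all. At an unadjusted p under 0.05 there were 8 members (16.7%) with edgeR and 7 with DESeq2. The share over all genes was 15.8% of 17983 with edgeR and 10.9% of 28103 with DESeq2. These 2 shares are not alike, because DESeq2 was run on every gene with a count. On the same 28103 genes edgeR gave 9 members and 12.1% of all genes. The 2 groups of mice did not overlap for 1 member (2.08%), Hspa9, against 2.62% of all genes. Of the 48 members, 22 were higher and 26 lower in the mutators, and their median log2 fold change was -0.01 beside a median of 0.00 over all genes.

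**Figure D1:**
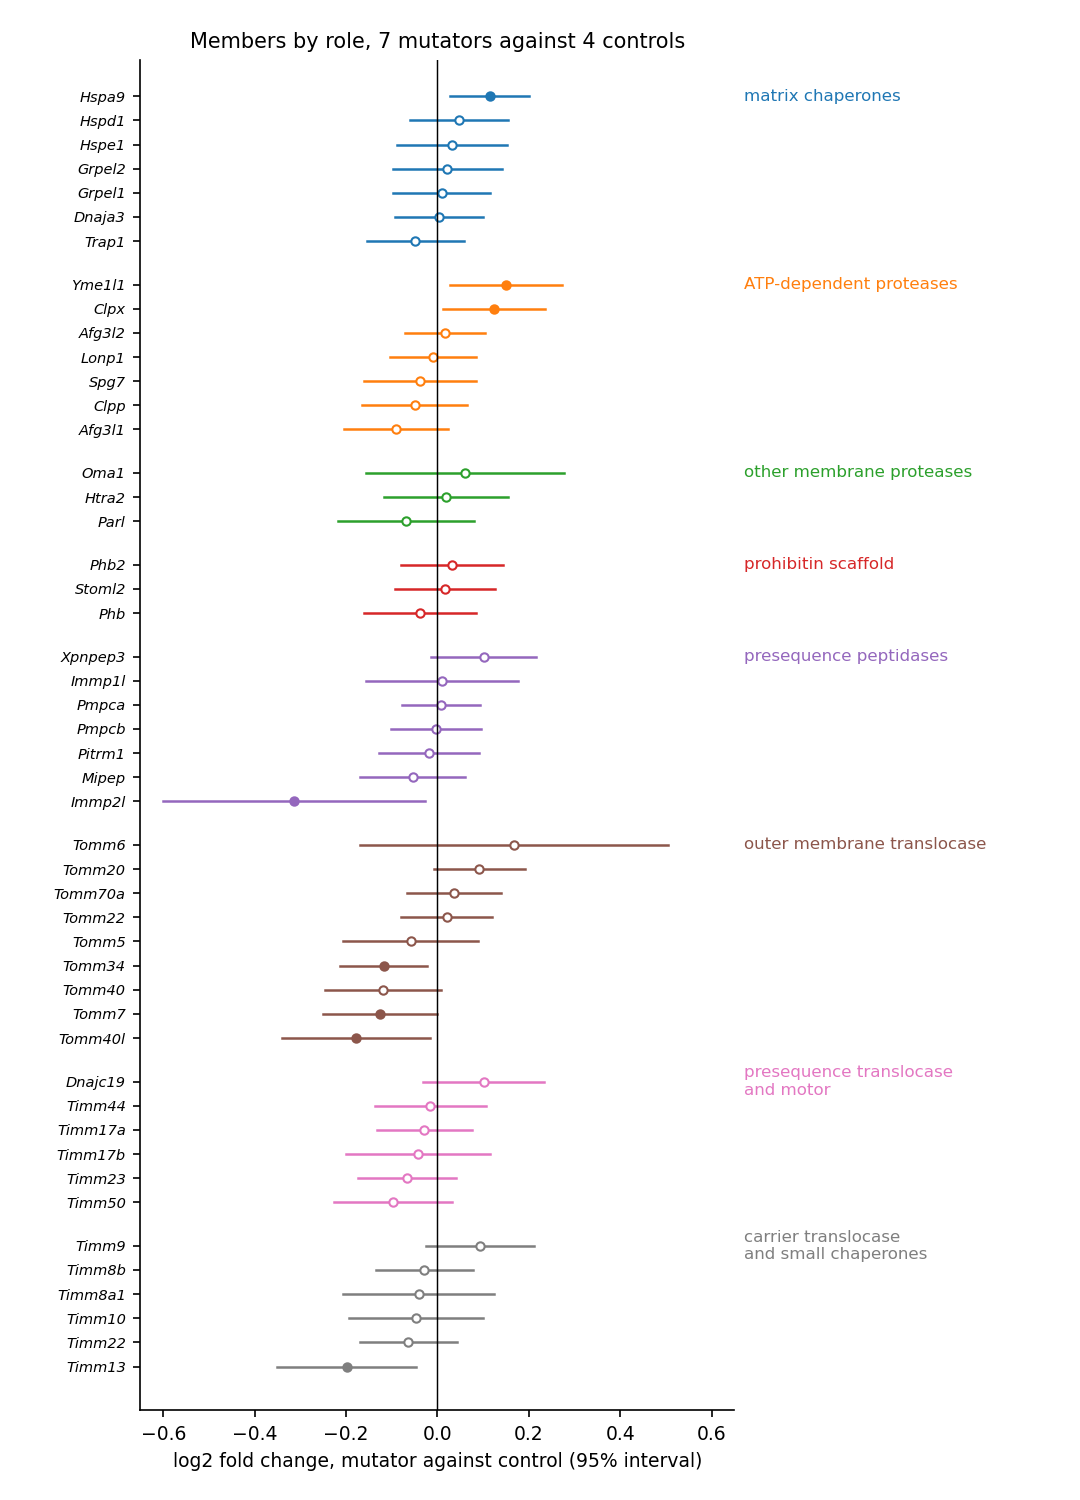
Log2 fold change of each of the 48 tested members in 7 mutators against 4 controls (point) with its 95% interval (line), grouped by role. Filled points have an unadjusted p under 0.05 (8 members), open points do not, and each of the 48 intervals lies within 2-fold in either direction.

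Within this fit the counts bounded most members closely. The intervals cover the spread between mice and not the shifts with GC content described below. The standard error of the log2 fold change had a median of 0.055 and ran from 0.041 to 0.16. For 42 of the 48 members the whole 95% interval lay within 1.2-fold of no change in either direction. The 6 others were Immp2l, Oma1, Timm13, Tomm40l, Tomm6 and Yme1l1. Of these, Immp2l alone had an interval that reached past 1.5-fold.

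The matrix chaperones are the members that draw in and fold imported proteins. Of the 7 tested, 6 were higher and 1 lower, the median log2 fold change was 0.02, and 1 had an unadjusted p under 0.05. That gene was Hspa9, which codes for mortalin, the HSP70 of the matrix and the motor of presequence import. On NCBIM37 (mm9) the gene takes chromosome 18, 35097068 to 35114011, minus strand. Hspa9 was at 234 CPM in control 205, 214 in control 237, 229 in control 239 and 238 in control 246, and at 239.7, 244 and 256.8 CPM as the lowest, median and highest of the mutators. Every mutator thus lay above every control, with means of 248 ± 6.88 CPM (SD, n = 7) and 229 ± 10.2 CPM (SD, n = 4). The log2 fold change was 0.11 (SE 0.042, adjusted p = 0.178 with edgeR), which did not pass the test. The gap between the highest control and the lowest mutator was small next to the spread within either group. Without control 237, the lowest of the 4, the log2 fold change was 0.09 with an adjusted p of 0.521.

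The other matrix chaperones differed less. Trap1, the mitochondrial HSP90, had a log2 fold change of -0.05 (adjusted p = 0.687). Grpel1 and Grpel2, the nucleotide exchange factors of mortalin, stood at 0.01 and 0.02, and Dnaja3, its J-protein partner, at 0.00. None of these had an adjusted p under 0.687.

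Hspd1 and Hspe1 code for the folding chamber HSP60 and its lid HSP10. Hspd1 was at 160 CPM in control 205, 141 in control 237, 153 in control 239 and 164 in control 246, and at 147, 159 and 171 CPM as the lowest, median and highest of the mutators. Its log2 fold change was 0.05 (SE 0.052, adjusted p = 0.706), with a 95% interval from -0.06 to 0.16. Without control 237 the log2 fold change was 0.01 (0.0071), and without control 246 it was 0.08. Hspe1 was at 40.4, 39.6, 39.0 and 44.6 CPM in controls 205, 237, 239 and 246, and at 37.7, 41.0 and 46.1 CPM as the lowest, median and highest of the mutators. Its log2 fold change was 0.03 (SE 0.058, adjusted p = 0.840), with a 95% interval from -0.09 to 0.15. For both genes the groups overlapped over most of their range. Of the exonic bases of Hspd1, 84.6% had a copy elsewhere in the genome of at least 100 bases at 95% identity or more, and of those of Hspe1 36.4%, so that their reads could be assigned less surely than those of Hspa9 with 12.3%.

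The 2 genes lie head to head on chromosome 1 and share 1 promoter, Hspd1 on the minus strand from 55134679 to 55145087 and Hspe1 on the plus strand from 55144976 to 55148151 (NCBIM37). Their annotated exons overlapped by 112 bases. The stretch between the RefSeq starts of the 2 genes, chr1:55087933-55088147 in GRCm38.p6 and 215 bases long with 70.2% GC, is printed here on the plus strand from 5′ to 3′, because it is the control region that the pair has in common. Capitals mark a run of 3 overlapping matches to paired heat shock units, the short sites that heat shock factors bind.

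Hspd1 and Hspe1, between the starts: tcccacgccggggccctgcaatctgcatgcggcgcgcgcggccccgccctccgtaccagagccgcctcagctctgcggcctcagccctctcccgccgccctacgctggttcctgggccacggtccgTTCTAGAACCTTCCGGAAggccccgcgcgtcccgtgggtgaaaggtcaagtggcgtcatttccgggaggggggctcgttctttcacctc

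The matches were TTCNNGAA at bases 127 and 137 of this stretch and GAANNTTC at base 132. Motifs were sought on both strands of the RefSeq promoters, from 250 bases before to 50 after each start, which were matched for 44 of the 50 members. A gene counted when any of its promoters held the letters. TTCNNGAA occurred in 10 of the 44 (22.7%) and in 9.6% of all 27025 genes with a RefSeq promoter, whether tested here or not. The 10 were Clpp, Hspd1, Hspe1, Phb, Timm10, Timm13, Timm8a2, Timm9, Tomm20 and Tomm22, of which Hspd1 and Hspe1 share the same bases. GAANNTTC occurred in 4 members (9.1%) and in 9.0% of all these genes. CCGGAAGT, a core that ETS factors such as GABPA bind, occurred in 8 members (18.2%) and in 4.3% of all these genes. CGCATGCG, a core bound by NRF1, occurred in 2 members (4.5%) and in 2.1% of all these genes. TGATGNAA, the core of amino acid response elements, was found in 0 of the 44 members and in 4.5% of all these genes. CCAAT occurred in 40.9% and 41.1%. These are counts of letters in a window and no binding was measured.

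Of the 7 ATP-dependent proteases, 3 were higher and 4 lower, with a median log2 fold change of -0.01. Those with an unadjusted p under 0.05 were Yme1l1 and Clpx, both higher. Yme1l1, the inner membrane AAA protease facing the intermembrane space, was at 92.5, 80.5, 89.2 and 88.6 CPM in controls 205, 237, 239 and 246, and at 87.4, 95.9 and 110 CPM as the lowest, median and highest of the mutators. The groups overlapped, control 205 being above 2 of the mutators. Its log2 fold change was 0.15 (SE 0.059, adjusted p = 0.207).

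Clpx is the unfoldase that feeds the CLPP protease. It was at 33.8, 30.2, 33.2 and 35.9 CPM in controls 205, 237, 239 and 246, and at 33.9, 36.4 and 38.1 CPM in the lowest, median and highest mutator. Only control 246 reached into the range of the mutators. The log2 fold change was 0.12 (SE 0.054, adjusted p = 0.265).

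The proteolytic chamber Clpp, its partner, lay on the other side of 0. It was at 32.0, 33.8, 33.9 and 34.5 CPM in controls 205, 237, 239 and 246, and at 29.5, 32.9 and 35.2 CPM in the lowest, median and highest mutator. The mutators ranged both below and above all controls, and the log2 fold change was -0.05 (SE 0.055, adjusted p = 0.707). Lonp1, the main matrix protease for oxidized proteins, was at 75.0, 84.9, 79.4 and 81.1 CPM in controls 205, 237, 239 and 246, and at 76.0, 80.0 and 82.6 CPM in the lowest, median and highest mutator. All mutators fell inside the range of the controls, with a log2 fold change of -0.01 (SE 0.046, adjusted p = 0.945) and a 95% interval from -0.10 to 0.09. The m-AAA protease subunits Afg3l1, Afg3l2 and Spg7 had log2 fold changes of -0.09, 0.02 and -0.04, with adjusted p from 0.439 to 0.891.

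**Figure D2:**
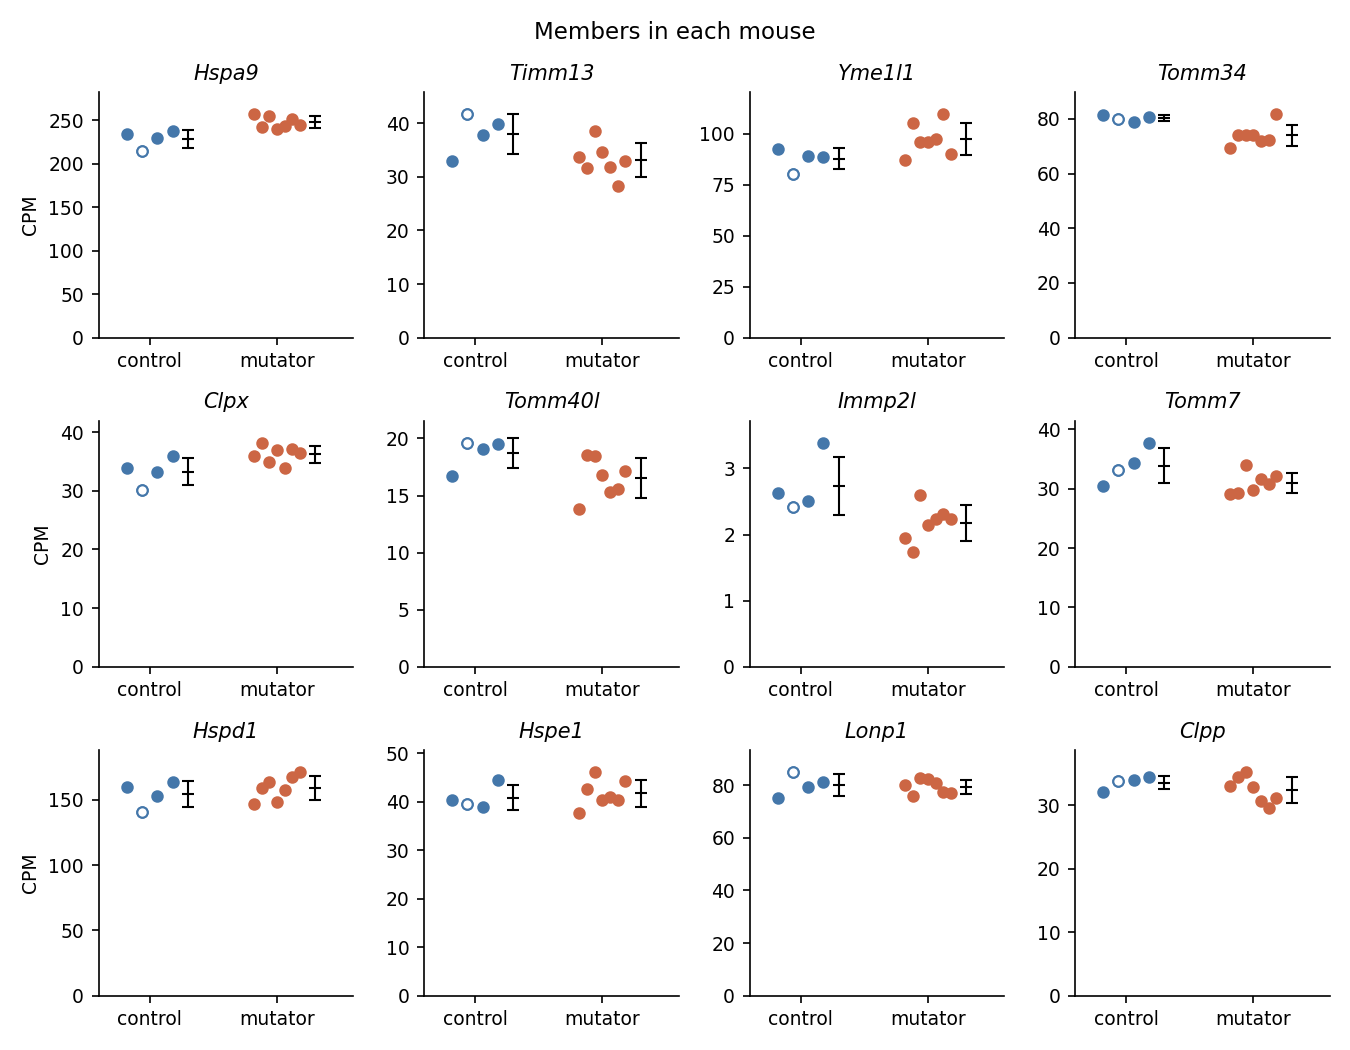
CPM of 12 members in each mouse, with 4 controls in blue (the WT/D257A mouse as an open circle) and 7 mutators in orange, and the mean and SD of each group in black beside its points. Hspa9 is the member whose groups do not overlap, with 239.7 CPM in the lowest mutator and 237.7 CPM in the highest control.

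The membrane proteases that do not use ATP and the prohibitins held 0 members with an unadjusted p under 0.05. Parl, the rhomboid protease that cuts PINK1, had a log2 fold change of -0.07 (adjusted p = 0.685), Oma1, the stress-activated protease of OPA1, 0.06 (adjusted p = 0.828), and Htra2, a serine protease of the intermembrane space, 0.02 (adjusted p = 0.924). The prohibitin scaffold genes Phb, Phb2 and Stoml2, which surround the m-AAA protease, stood at -0.04, 0.03 and 0.02, with adjusted p of at least 0.804. Phb, the most abundant of them in mean CPM over all mice, ran from 53.6 to 58.5 CPM in the controls and from 49.7 to 62.2 CPM in the mutators, so that the controls lay inside the mutators' range.

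The presequence peptidases cut and clear the targeting signal after import. Of 7 tested, 3 were higher and 4 lower, with a median log2 fold change of 0.00. Pmpca and Pmpcb, which together form the main processing peptidase, had log2 fold changes of 0.01 (SE 0.041) and 0.00 (SE 0.047). Pmpca ran from 75.1 to 79.2 CPM in the controls and from 74.9 to 79.8 CPM in the mutators. Mipep and Pitrm1, which trim the new end and degrade freed presequences, had log2 fold changes of -0.05 and -0.02, and Xpnpep3, an aminopeptidase, 0.10 (adjusted p = 0.384).

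Immp2l, a catalytic subunit of the inner membrane peptidase, had the largest log2 fold change of the 48 members in size, -0.31 (SE 0.14, adjusted p = 0.268). It was at 2.63, 2.42, 2.50 and 3.38 CPM in controls 205, 237, 239 and 246, and at 1.73, 2.23 and 2.60 CPM in the lowest, median and highest mutator. Control 246 stood above the other 3 controls, and 1 mutator, mouse 217, lay among the controls. Without mutators 211 and 217 the log2 fold change was -0.31 (adjusted p = 0.323). The groups then did not overlap, which follows from leaving out mouse 217. In that fit the groups did not overlap for 5.09% of all genes. The low level of Immp2l makes it the least precisely measured of the members with an unadjusted p under 0.05. The other catalytic subunit, Immp1l, had a log2 fold change of 0.01 (adjusted p = 0.971), with 80.9% of its exonic bases in a near-identical copy.

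The TOM complex and its relatives held 9 tested members, 4 higher and 5 lower, with a median log2 fold change of -0.06. The 3 with an unadjusted p under 0.05 were all lower. Tomm34, a cytosolic cochaperone of import, was at 81.4, 79.8, 78.9 and 80.7 CPM in controls 205, 237, 239 and 246, and at 69.3, 74.1 and 81.7 CPM in the lowest, median and highest mutator. The controls lay close together at 80.2 ± 1.12 CPM (SD, n = 4), and 6 of the 7 mutators were below them all. The log2 fold change was -0.12 (SE 0.046, adjusted p = 0.209).

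Tomm40l is a second form of the TOM channel. It was at 16.7, 19.6, 19.0 and 19.5 CPM in controls 205, 237, 239 and 246, and at 13.8, 16.8 and 18.6 CPM in the lowest, median and highest mutator. Control 205 lay within the range of the mutators and the other 3 controls above it. The log2 fold change was -0.18 (SE 0.078, adjusted p = 0.268), and of its 3344 exonic bases 2268 are also annotated to another gene. Tomm7, a small subunit that tunes the assembly of the complex, was at 30.5, 33.1, 34.3 and 37.65 CPM in controls 205, 237, 239 and 246, and at 29.1, 30.7 and 34.0 CPM in the lowest, median and highest mutator. The groups overlapped, and the log2 fold change was -0.13 (SE 0.060, adjusted p = 0.316). Without control 246, the highest mouse, it was -0.07 (adjusted p = 0.672).

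The receptors of the TOM complex had values slightly above 0. Tomm20, which binds presequences, was at 133, 118, 135 and 125 CPM in controls 205, 237, 239 and 246, and at 129, 136 and 147 CPM in the lowest, median and highest mutator. Control 237 was the lowest mouse, and the log2 fold change was 0.09 (SE 0.048, adjusted p = 0.359). Tomm70a, the receptor for carriers, had a log2 fold change of 0.04 (adjusted p = 0.767) and Tomm22, the central receptor, 0.02 (adjusted p = 0.881). Tomm40, the channel itself, had a log2 fold change of -0.12 (SE 0.061, adjusted p = 0.354), and the small subunits Tomm5 and Tomm6 of -0.06 and 0.17. Tomm6 had few reads, 1.16 to 1.57 CPM in the controls and 1.15 to 1.61 CPM in the mutators, and 952 of its 1131 exonic bases were shared with other annotated genes.

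In the TIM23 complex and its motor, 1 of 6 tested members was higher and 5 were lower, with a median log2 fold change of -0.04 and 0 unadjusted p under 0.05. Timm23, the channel, was at 52.2, 50.1, 55.2 and 57.8 CPM in controls 205, 237, 239 and 246, and at 48.1, 50.8 and 54.8 CPM in the lowest, median and highest mutator. Its log2 fold change was -0.07 (SE 0.051, adjusted p = 0.562), and 51.8% of its exonic bases had a near-identical copy. Without control 246 the log2 fold change was -0.03. Timm50, the receptor of the complex, stood at -0.10 (adjusted p = 0.464), and Timm17a and Timm17b, alternative channel partners, at -0.03 and -0.04. Timm44, which anchors mortalin to the channel, had a log2 fold change of -0.02 and Dnajc19, a J-protein of the motor, 0.10 (adjusted p = 0.461). Dnajc19 was at 0.05 without mutators 211 and 217 and at 0.07 without mutator 217 alone. The groups of mice overlapped for all 6.

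In the TIM22 pathway, 1 of 6 tested members was higher and 5 were lower, with a median log2 fold change of -0.04. Timm13, an intermembrane space chaperone that carries Timm23 to the inner membrane with Timm8a1, had an unadjusted p under 0.05. It was at 32.9, 41.7, 37.8 and 39.8 CPM in controls 205, 237, 239 and 246, and at 28.2, 32.9 and 38.6 CPM in the lowest, median and highest mutator. Control 205 sat at the median of the mutators and the other 3 controls near or above their top. The log2 fold change was -0.20 (SE 0.073, adjusted p = 0.184). Its partner Timm8a1 stood at -0.04 (adjusted p = 0.850), and Timm8b, the most abundant of the small chaperones, at -0.03 (adjusted p = 0.835). Of the exonic bases of Timm8a1, 85.5% had a near-identical copy, so its reads could be assigned less surely. Timm9 and Timm10, which together escort carriers, had log2 fold changes of 0.09 and -0.05, and Timm22, the carrier channel, -0.06, with adjusted p from 0.444 to 0.798.

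Levels can be compared between genes only per length, here as CPM per kilobase of exonic sequence. The length joins the exons of every annotated transcript of a gene, 8009 bases for Yme1l1 and 3085 for Afg3l2. A gene with annotated exons that were not used in these samples is therefore set too low. On this scale Tomm20 was the highest member, at 90.5 in the controls and 96.5 in the mutators, with a range over all mice of 83.6 to 104. Timm8b followed at 76.6 in the controls, with a range of 69.1 to 80.8 that did not meet that of Tomm20. Hspd1 and Hspa9 came next at 58.4 and 58.2 in the controls, and their ranges over the mice overlapped. Tomm70a was at 41.3 and Tomm22 at 39.4, again with overlapping ranges. The proteases were lower, with Afg3l2 at 28.4, Clpp at 27.8, Lonp1 at 27.0, Spg7 at 12.6, Yme1l1 at 11.0 and Clpx at 9.53. Hspe1 was at 27.8. The lowest of the tested members were Tomm6 at 1.14 and Immp2l at 1.49. Of the 1131 exonic bases of Tomm6, 952 are shared with other annotated genes, so its place in this order is not sure. The order says nothing of the proteins, and 8 of the 48 tested members had more than 50% of their exonic bases in a near-identical copy, among them Tomm20 (71.5%), Tomm22 (79.5%) and Hspd1.

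The WT/D257A control was often the lowest of the 4 controls. It lay below all 3 WT/WT mice for 21 of the 48 members (43.8%), against 29.5% of all genes, and above them for 12 (25.0%), against 28.4%. Hspa9, Yme1l1, Clpx, Hspd1, Tomm20 and Tomm70a were among the 21. Without mouse 237 the log2 fold change was 0.08 for Clpx, 0.06 for Tomm20 and -0.01 for Tomm70a. With mouse 237 left out, 2 members had an unadjusted p under 0.05 in place of 8, while over all genes that share was 9.79% in place of 15.8%. With 1 WT/D257A mouse, its genotype and the mouse cannot be told apart.

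The fold changes of the members went with the GC content of their transcripts, as did those of all genes. Across 17029 tested genes with an annotated sequence, the log2 fold change and the exonic GC content had a Spearman correlation of -0.392, and across the 48 members of -0.406. These correlations are across genes of the same 11 libraries and are descriptions only. Genes with 35% to 40% GC had a median log2 fold change of 0.10, and those with 55% to 60% GC of -0.07. Yme1l1 has 37.4% GC, Hspa9 44.1% and Clpx 44.6%, while Timm13 has 58.2%.

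A fit with offsets corrected for GC, added after the data had been seen, left a correlation of 0.006 over all genes and 0.095 over the members. The correction takes out any trend with GC over all genes, whatever its source, so a correlation near 0 follows by design. In that fit the log2 fold change was 0.05 for Yme1l1, 0.07 for Hspa9, 0.08 for Clpx and -0.11 for Timm13, and the groups overlapped for all 4. Tomm7 (44.0% GC) and Immp2l (45.7% GC) moved the other way, to -0.18 (adjusted p = 0.188) and -0.35 (adjusted p = 0.262). Dnajc19 (38.6% GC) went from 0.10 to 0.01 (0.0072), Tomm34 (54.5% GC) from -0.12 to -0.07 and Tomm20 (45.7% GC) from 0.09 to 0.06. Lonp1 (57.4% GC) went from -0.01 to 0.07 and Htra2 (59.2% GC) from 0.02 to 0.12. The groups then did not overlap for Htra2 alone. None of the 48 had an adjusted p under 0.05, 3 had an unadjusted p under 0.05 where 13.2% of all genes did, and 10 members changed sign.

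**Figure D3:**
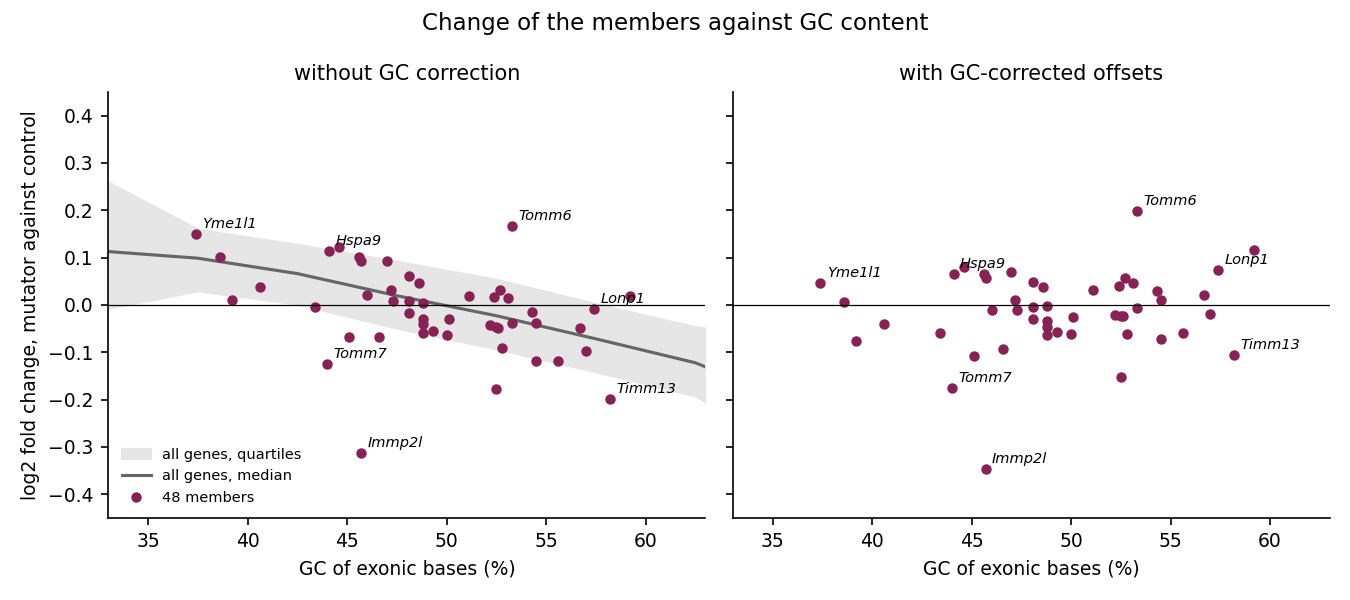
Log2 fold change of the 48 members (points) against the GC content of their exonic bases in percent, without (left) and with (right) GC-corrected offsets, over the median (line) and quartiles (band) of all genes in steps of 5 points of GC on the left. The members follow the slope of all genes on the left, with a Spearman correlation of -0.406. The correlation is 0.095 on the right, where the trend over all genes is removed by design.

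A wider list held 24 further names of import, protein folding and stress response genes. Of these, 22 were listed in the table under that symbol and all 22 were tested. None had an adjusted p under 0.05 with edgeR or DESeq2, and 7 were higher and 15 lower, with a median log2 fold change of -0.03. With an unadjusted p under 0.05 there was 1 (4.55%) with edgeR and 1 with DESeq2. Over all genes the share was 15.8% of 17983 with edgeR and 10.9% of the larger set of 28103 with DESeq2. The edgeR count ran from 0 to 3 when a mouse was left out. With edgeR this was Atf5, a transcription factor tied to the mitochondrial stress response, at 16.6, 18.1, 17.5 and 16.8 CPM in controls 205, 237, 239 and 246, and at 16.8, 19.1 and 23.1 CPM in the lowest, median and highest mutator. Its groups overlapped, and the log2 fold change was 0.17 (SE 0.077, adjusted p = 0.268). Ddit3, which codes for CHOP, had a log2 fold change of -0.02 (adjusted p = 0.903), Ubl5 -0.06 (adjusted p = 0.566), and Clpb, a disaggregase of the intermembrane space, -0.03 (adjusted p = 0.837). Of the outer membrane assembly genes, Samm50 stood at -0.07, Mtx1 at -0.11, Mtx2 at -0.02 and Mtx3 at 0.10. Chchd4 and Gfer, which form the disulfide relay that traps small Timm proteins, stood at 0.01 and -0.02.

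Members whose proteins work as a pair were compared across the 11 mice for 7 pairs. Hspd1 and Hspe1 had the highest correlation of log2 CPM, with Pearson's r = 0.69 (permutation p = 0.0198, adjusted p = 0.139 over 7 pairs) and Spearman's rho = 0.682 (permutation p = 0.0256, adjusted p = 0.179). Without the 2 mice farthest from the median of Hspd1, r was 0.593 (permutation p = 0.0957), and within the mutators alone 0.692 (exact permutation p = 0.0796). The relation therefore did not pass the correction over the 7 pairs. Without mutator 248 it had r = 0.799 with an adjusted p of 0.044. The other 6 pairs had r from -0.168 (Clpp and Clpx) to 0.438 (Afg3l2 and Spg7), with adjusted permutation p-values of at least 0.612. Phb with Phb2 had r = 0.205, Pmpca with Pmpcb 0.173, Timm9 with Timm10 0.319 and Timm8a1 with Timm13 0.317. For Phb and Phb2 and for Timm9 and Timm10 the sign changed without the 2 mice farthest from the median, to -0.41 and -0.465. Depth, dissection and any dependence of a library on GC content are common to both genes of a pair, whose own GC contents differ. Their part was not tested.

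**Figure D4:**
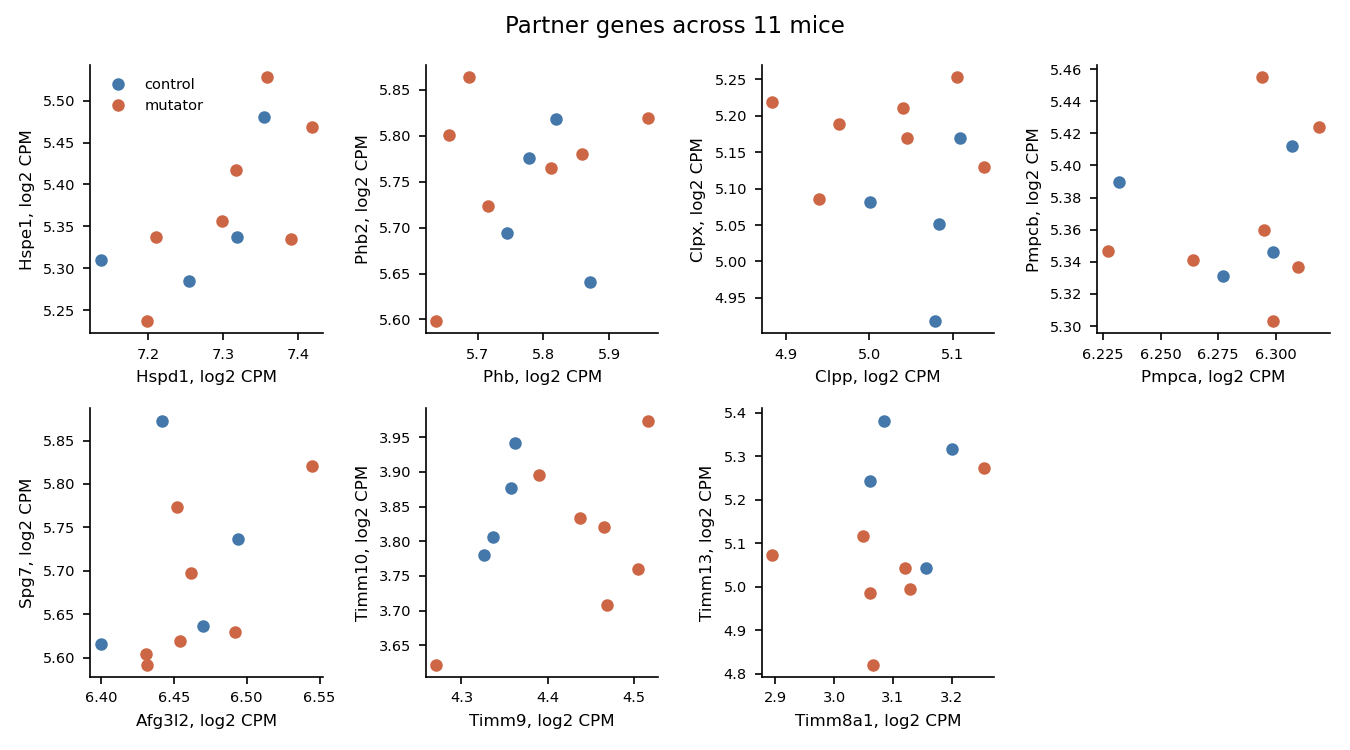
Log2 CPM of 7 pairs of partner genes in each of 4 controls (blue) and 7 mutators (orange). Hspd1 and Hspe1 lie along a rising line with r = 0.69, and the other 6 pairs have r between -0.168 and 0.438.

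Use of exons within the members was compared between the 7 mutators and the 3 WT/WT mice. The files split each gene into exon bins, and the fit asked whether a bin took a larger or smaller part of its gene's reads in 1 group. Of 817 bins of members, 653 were tested, in 48 members, 4 of which lie in groups of bins merged with overlapping genes. All bins of a merged group were counted with its member, so these counts include bins of the overlapping genes. With an adjusted p under 0.05 there was 1 bin (0.153%), against 0.0237% of the 206930 bins tested over all genes. With an unadjusted p under 0.05 there were 16 bins (2.45%) in 11 members, against 1.90% of all bins. The next lowest adjusted p of a member bin was 0.932.

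The called bin was the first of Tomm70a, the 67 bases at its 5′ end on chromosome 16 from 57121827 to 57121893 (NCBIM37, plus strand), which hold 0 coding bases and have 62.7% GC. It took 0.509%, 0.995% and 0.411% of the gene's counts in WT/WT mice 205, 239 and 246, on 129, 133 and 23 reads. In the mutators it took 0.259%, 0.377% and 0.546% as the lowest, median and highest value. Mouse 239 was apart from all others, and the other WT/WT mice lay among the mutators. The log2 change in usage was -0.82 (SE 0.155, adjusted p = 0.00524, edgeR's diffSpliceDGE). Without mouse 239 it was -0.37 with an adjusted p of 1.00, so the call rests on that mouse. Without mutator 240 it was -0.74 (adjusted p = 0.0709), and limma's diffSplice gave -0.75 (adjusted p = 0.0758).

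The second bin of Tomm70a, 414 bases with 74.2% GC that hold the start of the coding sequence, went the same way. It took 4.20%, 5.97% and 4.02% of the gene's counts in mice 205, 239 and 246 and 3.33% to 4.45% in the mutators, with a log2 change in usage of -0.28 (adjusted p = 0.932). Mouse 239 was also highest over the first bins of other genes. The sum took 5996 unmerged genes of at least 3 bins whose outermost 5′ bin had enough reads to be tested. These 5′ end bins held 3.06% of the counts of their genes in mouse 239 and 2.49% to 2.89% in the other 9 mice. Over these genes 65.7% of the 5′ end bins were used less in the mutators, as were 15 of 22 among the members (68.2%). The part of read coverage at 5′ ends in the Tomm70a value was not tested beyond this.

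**Figure D5:**
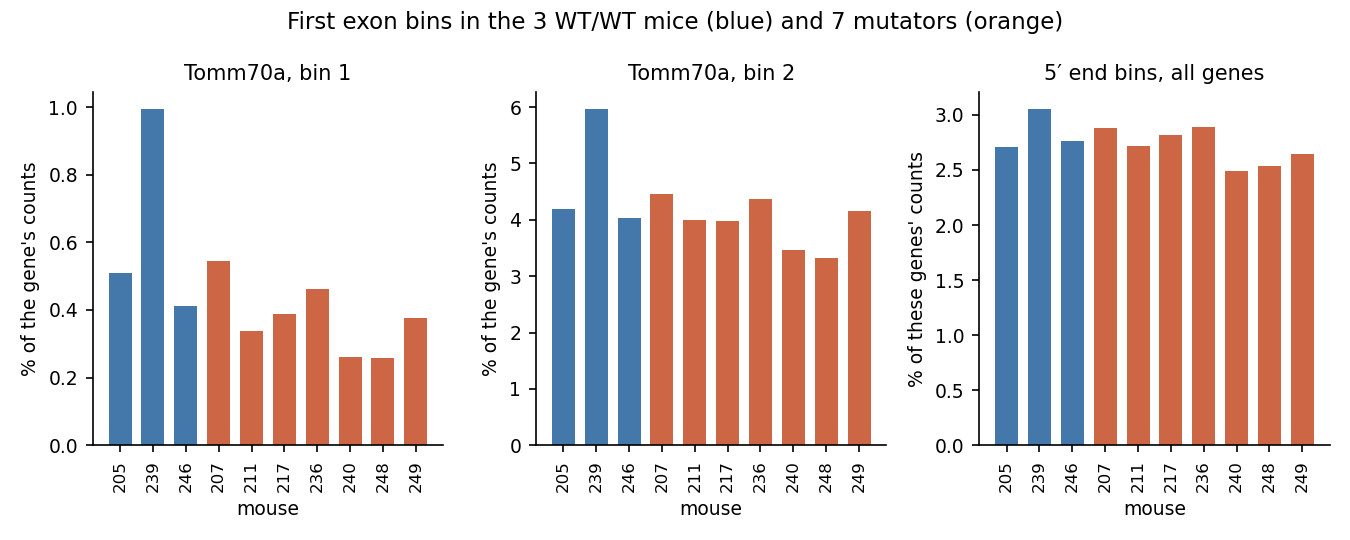
Share of the counts of Tomm70a in its first (left) and second (middle) exon bin, and of 5996 genes in their 5′ end bins (right), in percent, for 3 WT/WT mice (blue) and 7 mutators (orange). Mouse 239 is the highest in all panels, with 0.995%, 5.97% and 3.06%, and the other 2 WT/WT mice lie within the range of the mutators.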

How the data were processed

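Poly(A)+ RNA of 11 cerebra was sequenced as paired reads of 100 bases. Per the labels the authors used CASAVA 1.7.1, TopHat2 2.0.6, Bowtie2 2.0.2.0 and HTSeq 0.5.3p9 with mm9, and deposited raw read counts per gene and per exon bin. Whether counting used strand is not given in the sources used here. Their DESeq and DEXSeq tables of fold changes and p-values were not used, and their read totals only for depth.

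The quasi-likelihood test of edgeR 4.0.16 (R 4.3.3) was run on the counts of all genes with TMM factors, filterByExpr and robust dispersions, adjusted after Benjamini and Hochberg. CPM use the TMM factors. Exon bins were tested with diffSpliceDGE, and reads in no bin (20.6% to 23.4%) were left out. Alternatives were DESeq2 1.42.0, limma 3.58.1, other scalings and filters, and leaving out each mouse. The tests were checked on simulated data, and the share of changed exon bins that had to be recovered was lowered once after it had been narrowly missed. Correlations used 100000 permutations, or all orders of the 7 mutators. Positions, lengths, GC and copies came from NCBIM37 with GENCODE M1 (blastn 2.17.0), and promoters from RefSeq (GRCm38.p6). The 95% intervals cover the spread between mice.

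Members and lists were chosen with earlier results of these data known. The rule named 21 genes, the 8 of lowest p, the most abundant and most changed of each role, and Hspd1, Hspe1, Hspa9, Lonp1, Clpp, Tomm20 and Timm23. Those of lowest p and those listed by symbol are given mouse by mouse, and all other members more briefly.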

Additional observations from a re-analysis of the deposited data

Results flagged for a closer look

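Among the 42 groups of values of the 21 genes named by rule (controls and mutators apart), 1 held a mouse far from the rest, where chance flags about 1 in 20 groups. In Tomm34, mutator 249 was at 81.7 CPM while the other 6 mutators lay between 69.3 and 74.2 CPM, a gap of 0.604 of the range of the 7. The controls lay between 78.9 and 81.4 CPM. Without mouse 249 the log2 fold change went from -0.12 to -0.14 with an adjusted p of 0.11. The groups then did not overlap, which follows from leaving out the only mutator that was not below all controls. In that fit the groups did not overlap for 3.84% of all genes.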

How the results depend on the processing

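Under 20 alternatives for gene counts, 2 of them added after the data had been seen (GC-corrected offsets, and mutators 211 and 217 left out together), the count of members with an adjusted p under 0.05 was 0 throughout, as was that of the wider list. Of 420 values of the 21 named members, 406 kept their direction and 0 came under an adjusted p of 0.05, the lowest being 0.0574 for Timm13 without control 205. The 14 that changed direction belonged to 6 members. With GC-corrected offsets Clpp was at 0.0217, Tomm70a at -0.0407, Timm44 at 0.0293, Lonp1 at 0.074 and Pmpca at -0.0047. Without mutators 211 and 217 Hspe1 was at -0.005 and Timm44 at 0.0227. Leaving out each mouse gave -0.0112 to 0.0703 for Tomm70a, -0.0459 to 0.0134 for Timm44, -0.0427 to 0.021 for Lonp1 and -0.0092 to 0.0197 for Pmpca. The cause was not tested.

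Members with an unadjusted p under 0.05 numbered 3 with GC-corrected offsets and from 2 (without control 237) to 9 when a mouse was left out, where the share of all genes was 13.2% and from 9.79% to 18.5%. Members whose groups do not overlap numbered 3 without mutators 211 and 217 (Hspa9, Immp2l and Xpnpep3) and from 1 to 2 when a mouse was left out. Fewer mice separate more often by construction, and over all genes the share was 5.09% and from 2.94% to 7.32%. Member exon bins with an adjusted p under 0.05 numbered 0 with limma's diffSplice, where the Tomm70a bin was at -0.75, and from 0 to 1 when a mouse was left out, with the bin between -1.07 and -0.37. Partner pairs with an adjusted p under 0.05 numbered 0, and from 0 to 1 when a mouse was left out. No paired analysis was possible because the replicate numbers only follow the order of the samples. Members near 1 CPM, such as Tomm6, rest on as few as 32 reads in a mouse, and the 95% interval of its log2 fold change runs from -0.17 to 0.50.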
